A study of Mus musculus with 6 samples.

Results

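The claudin genes *Cldn1*, *Cldn3*, *Cldn4*, *Cldn6*, *Cldn7*, *Cldn11* and *Cldn12*, with *Ocln* (occludin) and *Tjp1* (ZO-1), were read by symbol in the gene counts of WT and *Rnf20* knockout cells. These are 9 genes, set beside a table of 16982. Of the 9, 7 had a row, and 5 passed the filter on low counts and were tested. No row was read for *Cldn6* and *Cldn7*, which count as 0 under the rule used here. *Cldn4* and *Ocln* were read at 1 to 12 counts per library and are described by their counts.

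The samples were 3 WT and 3 *Rnf20*-/- cultures of reprogrammable cells on a C57BL/6 background, harvested on day 3 after infection with retroviruses for the 4 reprogramming factors (OCT4, SOX2, KLF4, C-MYC). In the methods, the cells are mouse embryonic fibroblasts (MEF) carrying floxed *Rnf20* and a ubiquitous tamoxifen-inducible Cre, and 4-OH tamoxifen induces the deletion. The labels give all 6 cultures as untreated, and whether WT cultures received the drug was not stated. The methods also describe replating infected cells on mitomycin-C-treated MEF feeders, so RNA of feeder cells could be present in either genotype. Nothing in the labels says whether replicates came from separate embryos or cultures, and the p-values then measure only the spread between these samples.

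Tight junctions seal the space between neighbouring epithelial cells. Claudins are 4-pass membrane proteins that polymerize into the strands of the junction and set which ions can pass. Occludin lies in the same strands, and ZO-1 is a cytoplasmic scaffold that binds the tails of both and ties them to actin. Fibroblasts lack such strands but use ZO-1 at other cell contacts, and in reprogramming the mesenchymal-to-epithelial transition (MET) is the step at which epithelial junctions are assembled.

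The libraries held 20545442 to 21746898 counts. Values below are CPM (counts scaled to a common library size, TMM), and 3 counts, used as the floor, equal 0.142 to 0.143 CPM. *Rnf20* lay between 105.6 and 107.1 CPM in WT and between 16.4 and 18.7 in knockout libraries. Knockout replicate 3 stood apart from its group: a chi-square statistic of counts was 92.4 and 101 per gene against the other 2 knockout libraries, and 6.04 to 8.92 between other pairs of 1 genotype. Of 7 fibroblast markers, 4 had a negative and 3 a positive log2 fold change. *Col1a1* was at 7067 to 13077 CPM over the 6 libraries, and its genotypes overlapped. *Vim* was higher in every knockout library (2923 ± 232 to 3572 ± 109 CPM) but did not pass (adjusted p = 0.0577 from edgeR). At an adjusted p under 0.05, 2 of the 7 were lower and 0 higher, against 16.6% and 16.4% of all genes. The 2 were *Thy1* (180 ± 19.9 to 83.7 ± 5.19 CPM, adjusted p = 0.00251 from edgeR) and *Pdgfra* (199 ± 21.2 to 85.3 ± 31.1 CPM, adjusted p = 0.0185). Of the marker lists, epithelial genes (7 genes) summed to 55.2 to 59.5 CPM in WT and to 78.0, 54.2 and 22.5 in knockout replicates 1 to 3. Single markers differed in direction: *Krt19* was higher in every knockout library (13.8 ± 1.45 to 30.4 ± 12.4 CPM, adjusted p = 0.0274 from edgeR). *Krt8* (29.4 ± 0.955 and 10.4 ± 8.86 CPM), *Krt18* (1.88 ± 0.358 and 0.762 ± 0.408), *Epcam* (1.124 ± 0.110 and 0.524 ± 0.207) and *Esrp1* (0.206 ± 0.0724 and 0.0476 ± 0.0477) were lower in every one, as *Cldn3* and *Cldn11* were, and did not pass or were not tested. *Cdh1* and *Krt7* overlapped. Macrophage genes (6 genes) summed to 44.5 to 89.2 CPM in WT and to 75.1, 48.1 and 241.5 in the same order. *Ddx3y*, on the Y chromosome, was read in 4 libraries at 94.4 to 127.5 CPM, and its count was 0 in knockout replicates 1 and 3. The part of these differences in the results below was not tested, beyond the values without knockout replicate 3 and with a *Ddx3y* term.

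The start sites of *Cldn3*, *Cldn4* and *Cldn11* are shown, the 3 claudins whose knockout libraries did not overlap the WT libraries. *Cldn3* (chromosome 5 of GRCm38, 134986214 to 134987472, plus strand) and *Cldn4* (134945119 to 134946934, minus strand) are genes of 1 exon. They stand head to head with 39279 bases between them, and 0 other annotated genes lie wholly within that stretch. *Cldn11* (chromosome 3, 31149920 to 31164324, plus strand) has 3 exons. The 250 bases before each start site, from RefSeq on GRCm38.p6, are given 5′ to 3′ on the strand of the gene. Capitals mark a GC box (GGGCGG, the site of SP and KLF factors) or the E-box CAGGTG (the site of SNAI1 and ZEB1), on either strand. Only sites that lie wholly within the stretch are marked. A further GC box of *Cldn4* begins 5 bases before the start site, crosses it and stays in lower case.

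Cldn3, chr5:134985964-134986213: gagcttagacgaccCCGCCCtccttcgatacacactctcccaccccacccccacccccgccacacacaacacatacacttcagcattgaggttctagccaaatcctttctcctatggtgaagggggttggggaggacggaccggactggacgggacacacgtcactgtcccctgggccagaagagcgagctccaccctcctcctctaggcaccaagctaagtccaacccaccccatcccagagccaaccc
Cldn4, chr5:134946935-134947184: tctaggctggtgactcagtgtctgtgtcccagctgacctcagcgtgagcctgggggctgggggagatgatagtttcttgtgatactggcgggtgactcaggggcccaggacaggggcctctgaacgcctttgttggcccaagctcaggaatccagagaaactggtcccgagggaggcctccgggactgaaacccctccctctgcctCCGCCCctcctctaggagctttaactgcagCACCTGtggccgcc
Cldn11, chr3:31149670-31149919: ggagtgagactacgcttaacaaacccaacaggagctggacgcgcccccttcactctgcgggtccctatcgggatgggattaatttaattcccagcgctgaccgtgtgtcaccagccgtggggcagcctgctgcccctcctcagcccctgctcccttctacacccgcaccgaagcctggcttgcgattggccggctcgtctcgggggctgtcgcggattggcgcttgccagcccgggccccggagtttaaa

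*Cldn3* and *Cldn4* both carry the E-box just after the start site as well. It is shown with the bases on either side and the E-box in capitals, because the pair lie side by side and are read against each other below.

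Cldn3, from base 31 after the start: aaagccacaggCAGGTGcaggggcagtc
Cldn4, from base 11 after the start: ctttcttgttgCAGGTGcaggcaggaaa

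In windows of 300 bases (250 before to 50 after the start) 20.2% of 32817 RefSeq promoters held the E-box, 35.6% the GC box and 10.7% the SOX-type letters ATTGTT. No window of the 9 genes held ATTGTT, and that of *Cldn11* held a GC box after the start and no E-box. *Cldn7* and *Ocln* have 2 windows each and *Cldn12* has 3, from separate start sites. E-boxes lay in the window of *Cldn6*, in both of *Ocln* and in 1 of the 2 of *Cldn7*. The windows of *Cldn1* and *Tjp1* and 2 of the 3 of *Cldn12* held GC boxes and no E-box, and the remaining windows of *Cldn7* and *Cldn12* held neither. A match describes letters only and shows no binding.

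*Cldn11* was also assayed by RT-qPCR in the study (n = 3 independent experiments), which reports that the assay bore out the lower expression seen by RNA-seq. Its primers are printed because they show which part of the transcript that assay reads. Both matched the annotated transcript whole and bridge splice junctions of the coding sequence, between exons 1 and 2 and between exons 2 and 3, so that the 186-base product spans all 3 exons. Capitals mark the bases in exon 2.

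Cldn11 forward primer: atcctcatccttccagGC
Cldn11 reverse primer: gagagCCAGCAGAATAAG

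Among the 5 tested genes, *Cldn3* mRNA was lower in knockout cells and *Tjp1* mRNA, which encodes the scaffold ZO-1, was higher, each at an adjusted p under 0.05. *Cldn11* was lower in every knockout library but did not pass. *Cldn3*, a sealing claudin of simple epithelia, held 3.19, 2.56 and 2.80 CPM in WT replicates 1 to 3 (67, 54 and 59 counts). It held 0.859, 0.617 and 0.429 CPM in knockout replicates 1 to 3 (18, 13 and 9 counts). Every knockout library lay below every WT library, and knockout cells held on average 22.3% of the WT level. The log2 fold change was -2.16 (SE 0.318, 95% interval -2.91 to -1.40, adjusted p = 0.00614; quasi-likelihood (QL) test of edgeR, Benjamini-Hochberg over 13386 genes). Leaving out knockout replicate 3 gave -1.94, and leaving out knockout replicate 1 gave -2.43. When each library was left out in turn, its adjusted p passed 0.01 only without knockout replicate 3 (0.000819) and was 0.0119 to 0.0384 in the other 5 fits. With a term for *Ddx3y* the log2 fold change was -2.20. As *Ddx3y* was read only in WT libraries and knockout replicate 2, that estimate rests on this 1 knockout library against WT. *Cldn3* passed the filter on low counts through the WT libraries, since knockout replicate 3 lay under its minimum, and with no filter the adjusted p was 0.00677. In bulk RNA, fewer cells of a type and less RNA per cell cannot be told apart. An exon of *Wbscr25* on the opposite strand overlaps the annotated exon of *Cldn3*, and whether the authors' counting used the strand was not stated.

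At the study's thresholds (adjusted p under 0.01, more than 2-fold, and FPKM averaging over 1 in either genotype), *Cldn3* was the 1 gene of the 5 tested that was called lower and 0 were called higher. Over all genes tested, 2.08% were called lower and 1.5% higher. With an adjusted p under 0.05 alone, *Cldn3* was lower and *Tjp1* higher, against 16.6% and 16.4% of all genes. The median log2 fold change of the 5 genes was -0.59, against -0.00032 over all genes. Of the 5, *Cldn3* and *Cldn11* passed the filter on low counts through the WT libraries, where they are high, so these counts and this median are a description. Of all genes tested, 28.2% had all 3 knockout libraries below and 26.6% all 3 above the WT libraries, and of the 5 genes 2 and 1 had.

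*Cldn11*, the claudin of myelin and of the blood-testis barrier, is among the genes that the study named from these same libraries. It was read at 14.8, 15.2 and 17.04 CPM in WT libraries and at 4.39, 5.32 and 0.143 in knockout replicates 1 to 3. The last value is 3 counts, where the WT libraries had 312 to 359. No knockout library reached the WT range, and knockout replicate 3 lay far below the other 2. That library was under the minimum of the filter on low counts, so *Cldn11*, like *Cldn3*, passed the filter through the WT libraries, where it is high. The log2 fold change was -2.25 with a wide error (SE 0.785, 95% interval -4.12 to -0.39, adjusted p = 0.0663; edgeR QL test). Without knockout replicate 3 it was smaller, -1.69, and the adjusted p was 9.29e-06. In that fit *Cldn11* and *Cldn3* both passed the study's thresholds, as did 3.62% of all genes in the lower direction, and none of the 9 genes was called higher, against 2.18% of all genes. At 0.05 alone, 24.2% of all genes were lower in that fit. With a term for *Ddx3y*, which is absent from knockout replicates 1 and 3, the log2 fold change of *Cldn11* was -1.56. That estimate rests on knockout replicate 2 alone against WT. With no filter on low counts and no such term, the adjusted p of *Cldn11* was 0.0698 (edgeR QL test). Markers of myelinating glia, the other cells known for *Cldn11*, summed to 15.6 to 23.5 CPM in WT and 14.8 to 20.6 in knockout libraries (6 genes). Of 4 tested, 1 was called lower (*Mobp*, log2 fold change -2.30, SE 0.243, adjusted p = 0.00321 from the same test). The defining marker *Mog* was at 0 in every WT library and *Mag* at 0 in 5 of 6 libraries.

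**Figure D1:**
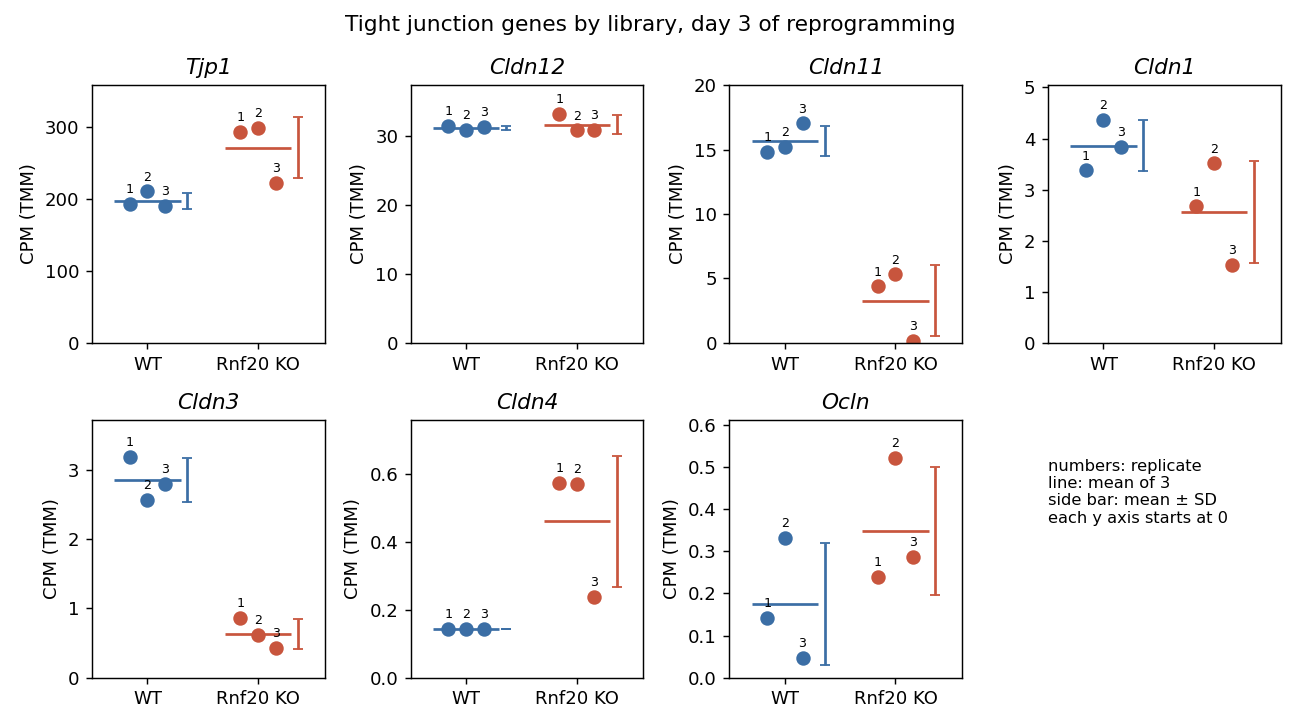
CPM with TMM library sizes (y axes, linear, each from 0) of the 7 genes with a row in each of 3 WT and 3 *Rnf20* knockout (KO) libraries. Points are libraries numbered by replicate, lines are means and side bars are mean ± SD (n = 3). *Cldn3* and *Cldn11* lie lower in every knockout library, *Cldn4* and *Tjp1* higher in every one, and knockout replicate 3 holds 0.143 CPM of *Cldn11*.

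*Cldn1* (chromosome 16, 26356642 to 26371841, minus strand), which is needed for the barrier of the epidermis, had 3.38, 4.37 and 3.84 CPM in WT and 2.67, 3.51 and 1.52 in knockout libraries. The genotypes overlapped, since knockout replicate 2 lay above WT replicate 1. The log2 fold change of -0.59 did not pass (SE 0.325, 95% interval -1.36 to 0.19, adjusted p = 0.202; edgeR QL test). It moved to -0.32 without knockout replicate 3 and to -0.87 without knockout replicate 2.

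*Cldn12* (chromosome 5, 5489537 to 5514958, minus strand), an atypical claudin that lacks the PDZ-binding tail by which most claudins bind ZO proteins, was read at 31.5, 30.9 and 31.4 CPM in WT libraries. It was read at 33.3, 30.9 and 31.0 CPM in knockout libraries, and the genotypes overlapped. Its log2 fold change was 0.020 (SE 0.0741, adjusted p = 0.853 from the same test), with a 95% interval of the fold from 0.897 to 1.15. The sign turned with library sizes alone (-0.040).

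*Cldn4*, a claudin of tight epithelia, was read higher in knockout libraries, unlike its neighbour *Cldn3*, but on very few reads. It had 3 counts in each of the 3 WT libraries and 12, 12 and 5 in knockout replicates 1 to 3. All knockout libraries lay above all WT libraries. The summed counts were 9 in WT and 29 in knockout libraries, a ratio of 3.23 in CPM (95% exact interval 1.49 to 7.76, which covers counting error only). An exact permutation test over the 6 libraries gave p = 0.1, the smallest that 3 against 3 allows (two-sided). When no filter was used, the edgeR QL test gave an adjusted p of 0.0878. Without knockout replicate 3 it passed the filter, but only through the knockout libraries where it is high, so that fit is not read as a test of it. The ratio of *Cldn3* to *Cldn4* per length needs no library scaling. It was 32.2, 25.96 and 28.4 in WT and 2.16, 1.56 and 2.60 in knockout libraries (28.8 ± 3.15 against 2.11 ± 0.519, mean ± SD, n = 3 each). This is a description, since the directions of both genes fix that of their ratio, and the WT ratios divide by 3 counts, whose counting error the SD does not hold. Transcripts of the 9 genes shared 0 stretches of 50 bases with any other annotated gene, so reads of that length lying within 1 of them match no other claudin exactly.

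*Ocln* (chromosome 13, 100496507 to 100552718, minus strand) was close to the limit of detection, with 3, 7 and 1 counts in WT and 5, 11 and 6 in knockout libraries. The genotypes overlapped. The ratio of summed counts (22 to 11) was 2.01, with an exact interval of 0.932 to 4.58, and the exact permutation p was 0.3. A change of *Ocln* was not detectable at this depth.

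*Tjp1* (chromosome 7, 65296165 to 65527781, minus strand) was read at the highest level of the 7 genes, also per length. It held 193, 211 and 190 CPM in WT libraries and 293, 299 and 223 in knockout libraries. All knockout libraries lay above all WT libraries, and knockout replicate 3 lay closest to WT. The log2 fold change was 0.46 (SE 0.124, 95% interval 0.16 to 0.75, adjusted p = 0.0320; edgeR QL test). This is a fold of 1.37 and under the study's limit of 2. Without knockout replicate 3 the log2 fold change was 0.58 (adjusted p = 3.25e-05), in a fit where 23.9% of all genes were higher at 0.05, and without any 1 of the other libraries the adjusted p lay between 0.0769 and 0.117. The direction held in each of these fits.

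**Figure D2:**
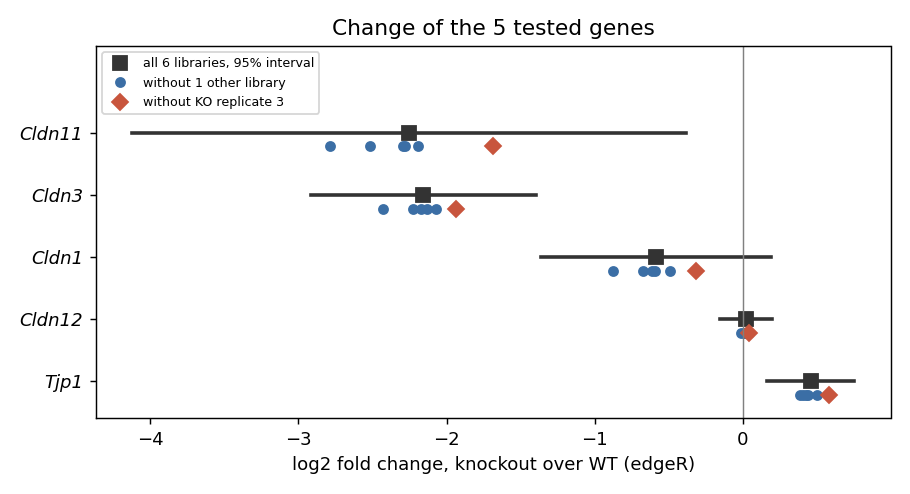
Log2 fold change of knockout over WT (x axis) of the 5 tested genes. Squares and bars are the estimate from all 6 libraries with its 95% interval, and points below are estimates with 1 library left out, a diamond marking the fit without knockout replicate 3. *Cldn11* has the widest interval, from -4.12 to -0.39, and that of *Cldn12* lies around 0.

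Levels of different genes were compared per length, as RPKM computed from the counts and the deposited gene lengths. In WT cells *Tjp1* was at 27.2 ± 1.54 RPKM (mean ± SD, n = 3). *Cldn11* at 8.39 ± 0.632 and *Cldn12* at 8.34 ± 0.0766 followed and overlapped each other. *Cldn3* at 2.26 ± 0.249 and *Cldn1* at 1.19 ± 0.153 came next and did not overlap. *Cldn4* at 0.0784 and *Ocln* at 0.0406 ± 0.0338 were near 0. In knockout cells the order below *Tjp1* (37.3 ± 5.80) was *Cldn12* at 8.45 ± 0.370, *Cldn11* at 1.76 ± 1.48, *Cldn1* at 0.792 ± 0.308, *Cldn3* at 0.504 ± 0.171, *Cldn4* at 0.253 ± 0.106 and *Ocln* at 0.0814 ± 0.0355. Knockout *Cldn1* and *Cldn3* overlapped, and the 0.0764 RPKM of *Cldn11* in knockout replicate 3 lay below *Cldn1*, *Cldn3* and *Cldn4* of that library.

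Summed over the 5 claudins, the level was 19.97, 19.8 and 20.97 RPKM in WT and 13.0, 13.0 and 9.27 in knockout libraries. Knockout cells held on average 58.0% of the WT sum, or 64.3% without knockout replicate 3. The groups did not overlap (exact permutation p = 0.1, the smallest possible). The sum is a description, since it takes in *Cldn3* and *Cldn11*, which were already seen to be lower. With the authors' FPKM in place of RPKM, over the 4 claudins that table holds, it was 56.3%.

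The shares of the 5 claudins in their sum differed between genotypes. In WT libraries *Cldn11* and *Cldn12* held near equal shares of the summed RPKM, 39.7% to 43.4% and 39.9% to 42.0%. In knockout libraries *Cldn12* held 68.0%, 63.5% and 89.0% and *Cldn11* held 18.0%, 21.95% and 0.824%. The share of *Cldn3* was 11.2% ± 1.30 in WT and 4.23% ± 0.868 in knockout cells, that of *Cldn1* 5.88% ± 0.813 and 6.58% ± 1.66, and that of *Cldn4* 0.388% ± 0.0119 and 2.08% ± 0.580 (mean ± SD, n = 3 each). Shares of *Cldn1* overlapped between genotypes (exact permutation p = 0.7) and the other 4 did not (p = 0.1 for each, the smallest possible). Shares are parts of a whole, so lower shares of *Cldn11* and *Cldn3* raise those of the other claudins. These values are a description and not separate tests. The share of *Cldn12* was higher in every knockout library, while its level overlapped between genotypes.

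**Figure D3:**
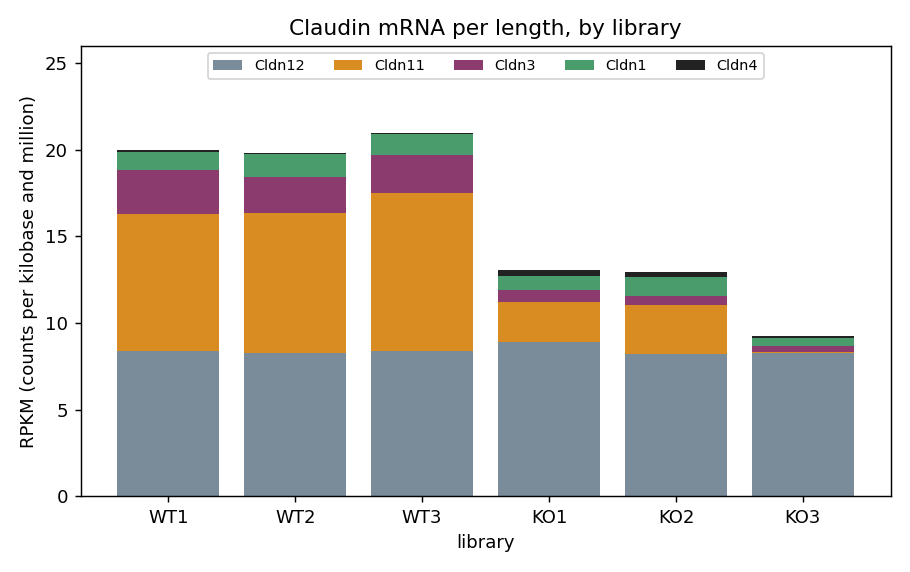
RPKM of 5 claudins (y axis, stacked from 0) in each of the 6 libraries (x axis). The *Cldn12* segment is of similar height throughout, at 8.23 to 8.88 RPKM, and the *Cldn11* segment is 7.93 to 9.11 RPKM high in WT and 2.35, 2.84 and 0.0764 in knockout replicates 1 to 3.

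The genes whose pattern over the 6 libraries was most like that of *Cldn3* (Pearson's r of log2 CPM, 13385 genes compared, 6 libraries) were *Zfp141*, *4933413G19Rik* and *Caprin2*, each with r of 0.999. Their log2 fold changes were smaller than that of *Cldn3*, at -0.44, -1.25 and -1.08 (adjusted p = 0.0123, 0.00326 and 0.00664; edgeR QL test). *4933413G19Rik* and *Caprin2* were called lower. For *Cldn11* the most alike genes were *Svil*, *Hcfc1* and *Baz1b*, each with r of 0.999. These follow *Cldn11* in shape but not in size, with log2 fold changes of -0.63, -0.47 and -0.37 that did not pass (adjusted p = 0.0917, 0.111 and 0.0985; edgeR QL test). With 6 libraries in 2 groups, such values are a description only.

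Beyond the 9 genes, 77 other genes linked to tight junctions were read as lists. Of these 49 were tested, and 8 were lower and 7 were higher (adjusted p under 0.05). At the study's thresholds 0 of the 49 were lower and 1 higher, against 2.08% and 1.5% of all genes. The median log2 fold change of the 49 was -0.038. The shares of 8 and 7 in 49 are near the background of 16.6% and 16.4%. Of these 15 genes, *Amotl2*, *Llgl1* and *Llgl2* passed 0.05 in every fit that left out 1 library. The other 12 missed it in at least 1: *Magi1* without WT replicate 2, *Jam2* without WT replicate 3, *Magi2* without WT replicate 1 or 3, and *Grhl1* in all 6. *Pard6b* and *Elf3* missed it without any 1 WT library, *Klf4* without WT replicate 2 or 3 or knockout replicate 2, and *Dlg1* in all but the fit without knockout replicate 3. *Cldn15* and *Cxadr* missed it without any 1 WT library or knockout replicate 2, and *F11r* and *Mpp5* without any 1 WT library or knockout replicate 1.

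Other claudins were scarce. Of 19 listed, 11 had a row and 2 were tested. *Cldn15*, a pore-forming claudin of the gut, had 1.38 ± 0.217 CPM in WT and 0.461 ± 0.307 in knockout libraries (28, 34 and 25 counts against 17, 5 and 7). It passed the filter only through the WT group, where it is high, and its place among the 8 lower genes rests on that. *Cldn34c1* had 3.52 to 4.604 CPM in WT and 3.05 to 4.19 in knockout libraries. The other 9 with a row, among them *Cldn5* of endothelium and *Cldn2*, had at most 15 counts in any library. Of these, *Cldn19* was lower in every knockout library (9, 12 and 8 counts in WT against 3, 6 and 6). *Cldn22* was higher in every one (3, 1 and 0 counts in WT against 4, 7 and 12), and the rest overlapped.

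Among 12 other membrane proteins of the strands, 7 were tested. The junctional adhesion molecules *F11r* (JAM-A) and *Jam2* rose, with log2 fold changes of 0.43 (SE 0.110, adjusted p = 0.0265) and 0.55 (SE 0.102, adjusted p = 0.0110). *Cxadr*, the coxsackie and adenovirus receptor, fell by 0.30 on the log2 scale (adjusted p = 0.0385; edgeR QL test). *Marveld2*, which encodes tricellulin, was at 0 to 0.0950 CPM.

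All 19 plaque proteins were tested, with a median log2 fold change of -0.038. *Amotl2*, an angiomotin of junctions and a target of YAP, rose from 160 ± 10.9 to 340 ± 60.3 CPM (log2 fold change 1.09, SE 0.134, adjusted p = 0.00394 from the same test) and was the 1 gene of all lists called higher. In each of the 6 leave-one-out fits it missed the study's thresholds, while its adjusted p stayed under 0.05 (0.0303 at most). *Magi2* rose by a log2 fold change of 0.74 (adjusted p = 0.0160), while its paralog *Magi1*, a scaffold of epithelial junctions, fell by 0.72 on the log2 scale (adjusted p = 0.0112). *Tjp3* (ZO-3), a scaffold of epithelial cells, was at 0.523 to 0.712 CPM in WT and 0.0953 to 0.573 in knockout libraries. *Cgnl1* (paracingulin) stood at 38.6 to 42.4 CPM in WT libraries and 46.7, 49.4 and 126.5 in knockout replicates 1 to 3.

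Of 13 polarity proteins 12 were tested, with 2 lower and 3 higher, against 16.6% and 16.4% of all genes at an adjusted p under 0.05, so the counts are near the background. The *Lgl* paralogs, which restrain the apical PAR complex, went in opposite directions. *Llgl1* fell from 127 ± 4.43 to 74.5 ± 9.38 CPM (log2 fold change -0.77, adjusted p = 0.00500) and *Llgl2*, the epithelial paralog, rose from 4.38 ± 0.354 to 8.40 ± 1.23 CPM (log2 fold change 0.94, adjusted p = 0.00986; edgeR QL test). *Pard6b* fell by 0.88 on the log2 scale (adjusted p = 0.0200), *Mpp5* (PALS1) rose by 0.49 (adjusted p = 0.0316) and *Dlg1* by 0.34 (adjusted p = 0.0208 from the same test).

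Of 14 transcription factors known to act on claudin genes or on epithelial identity, 9 were tested, of which 3 were lower and 0 higher (adjusted p under 0.05, edgeR QL test), against 16.6% and 16.4% of all genes. At an unadjusted p under 0.05 the count of these 9 that were higher was also 0, a description only, as the share of all genes at that limit was not computed. *Elf3*, an epithelial ETS factor, fell with a log2 fold change of -1.60 (adjusted p = 0.0257, same test). The study also named *Elf3* from these libraries and reports that RT-qPCR bore this out. *Grhl1* fell by 0.92 on the log2 scale (adjusted p = 0.0366, same test). *Klf4*, whose viral transcripts were not separated here, fell by 0.43 (adjusted p = 0.0176, same test). The repressors that bind the E-box did not pass, with log2 fold changes of -0.0033 for *Snai1*, 0.13 for *Snai2*, 0.20 for *Zeb1* and -0.085 for *Zeb2*, and their libraries overlapped between genotypes.

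**Figure D4:**
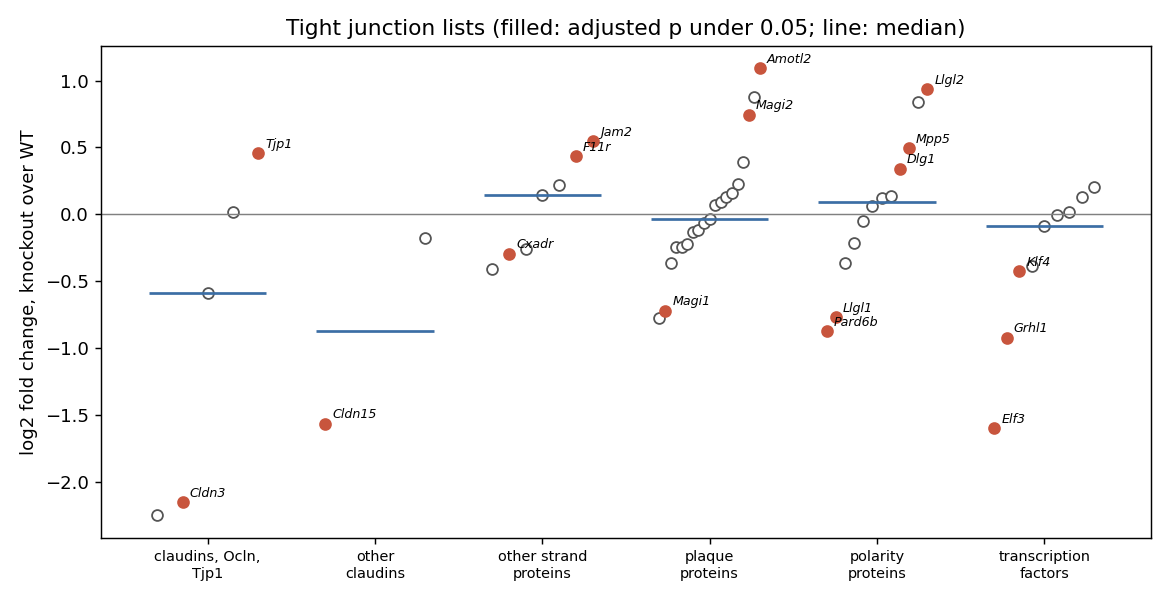
Log2 fold change of knockout over WT (y axis) of each tested gene in 6 lists (x axis). Filled points have an adjusted p under 0.05 and carry their symbol, open points do not, and the line is the median of the list. Points of the plaque and polarity lists lie on both sides of 0, with medians of -0.038 and 0.091, and *Cldn11* and *Cldn3* are the lowest points of all lists.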

How the data were processed

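RNA-seq libraries (TruSeq Stranded mRNA, HiSeq 2000) of 3 WT and 3 *Rnf20*-/- cultures at day 3 were analysed. The authors aligned reads to GRCm38 with HISAT2 2.1.0, and deposited counts per gene and FPKM (Cufflinks 2.1.1, 12633 genes). The counting program and its use of strand are not given in the sources used here. The deposited tables also hold the authors' own log2 fold changes and adjusted p-values, which were not used.

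Counts were tested with edgeR 4.0.16 (R 4.3.3): TMM, filterByExpr (minimum count 10, minimum total 15), the quasi-likelihood test of knockout against WT without covariates, and Benjamini-Hochberg adjustment over 13386 genes. Calls needed 3 things: adjusted p under 0.01, a log2 fold change beyond 1 in either direction, and FPKM averaging above 1 in WT or knockout. Genes under the filter were compared by summed counts with exact intervals and by exact permutation tests (two-sided). CPM and RPKM used TMM library sizes. The exact intervals of summed counts and the floor of 3 counts cover counting error only, while the edgeR intervals also hold the spread between libraries. The text names all 9 genes and genes of the lists that passed. It also names the 3 genes most alike to *Cldn3* and *Cldn11* by Pearson's r of log2 CPM (prior count of 2). Other list members were named after their values were seen. The genes and lists were chosen with earlier results of these data known. Alternatives were RLE factors, library sizes alone, edgeR's exact test, DESeq2 1.42.0, changed filters and thresholds, a replicate block and leaving out each library; a *Ddx3y* term and the authors' FPKM were added after seeing the data. The fit was tested on simulated counts. Positions came from GENCODE M21 and promoters from RefSeq, both on GRCm38. Figures were drawn with matplotlib 3.10.9.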

Additional observations from a re-analysis of the deposited data

How the results depend on the processing

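Of the 9 genes, 1 was called lower (*Cldn3*) and 0 higher at the study's thresholds. The count of lower calls was 0 with the filter of 10 counts in every library, which removes *Cldn3* and *Cldn11* by construction. It was also 0 with the replicate block, where the adjusted p of *Cldn3* was 0.0251 (edgeR QL test). It ranged from 0 to 2 when 1 library was left out, with 2 (*Cldn3* and *Cldn11*) without knockout replicate 3. It stayed at 1 with RLE factors, library sizes alone, DESeq2, edgeR's exact test, no filter, no FPKM threshold and an adjusted p under 0.05. At an adjusted p under 0.05 of any size, the count of lower genes (1) was 0 with the filter of 10 counts and 1 to 2 with 1 library left out. The count of higher genes (1, *Tjp1*) was 0 to 2 with 1 library left out. The 2, without knockout replicate 3, were *Tjp1* and *Cldn4*. *Cldn4* passed the filter there only through the knockout libraries and is not read as a test. Among the other tight junction genes, 0 were called lower with edgeR's quasi-likelihood test and 1 (*Elf3*) with DESeq2, with edgeR's exact test and with an adjusted p under 0.05, and 0 to 1 with 1 library left out (*Elf3* without knockout replicate 3). The 1 called higher (*Amotl2*) became 0 with the replicate block and 0 to 0 with 1 library left out, and the cause was not tested. With the *Ddx3y* term the genotype effect rests on knockout replicate 2 alone against WT, so calls of that fit are not counted. The log2 fold change of *Cldn12* turned to -0.040 with library sizes alone, ranged from -0.012 (without knockout replicate 1) to 0.043 with 1 library left out, and turned to -0.019 with the *Ddx3y* term, and the other 4 tested genes kept their direction in every fit. Deviations of same-numbered WT and knockout libraries from their group means correlated at -0.066, 0.037 and 0.011, which showed no pairing by number. Knockout replicate 3 weighs heavily on the mean of its group, so these values cannot decide whether the samples were paired. With the replicate block the log2 fold change of *Cldn3* was -2.18. Summed claudin RPKM in knockout stayed between 55.0% and 64.3% of WT with RLE factors, library sizes alone, the authors' FPKM and each library left out, the alternatives run for it. Depth limits *Cldn4* and *Ocln*, and with 3 samples a genotype no exact permutation p can be below 0.1.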
